A study of Schizothorax plagiostomus with 18 samples.

Results

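The comparison described here sets the testis against the ovary after spawning in the snow trout Schizothorax plagiostomus, a river fish with a breeding season. Its members are the 6 post-spawning libraries of an 18-library series, chosen by their labels: post-spawning testis 1, 2 and 3, and post-spawning ovary 1, 2 and 3. The other 12 libraries are testes and ovaries taken before and at spawning, with 3 per gonad and stage. Total RNA was depleted of ribosomal RNA and sequenced, and each replicate number also marks 1 of 3 seasons, which the labels call a batch. The labels give no age, strain or treatment, and they do not say whether replicates came from separate fish or whether fish were pooled. Post-spawning ovary 1 stands apart from its group, so every main result is given with it and without it.

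After spawning, a fish ovary is left with emptied follicles, unspawned oocytes that are broken down, and young oocytes of the next cycle, and the growing oocyte stores maternal RNA for the embryo. The spent testis holds leftover sperm, spermatogonia that will start the next cycle, and the somatic Sertoli and Leydig cells. Vertebrate testes are known for transcribing a broad part of the genome. In bulk tissue such as this, a change in the number of cells of a type and a change in RNA per cell cannot be told apart.

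The unit of measurement is a feature, which is either a single assembled transcript or a cluster of several transcripts. The deposited table holds 135031 features made from 251830 transcripts. Neither file pairs a feature with a gene name, so lists of oocyte, follicle, Sertoli, Leydig, meiotic and sperm genes could not be applied, the labelled tissues could not be checked against marker genes, and features are described by identifier, level and behaviour. Levels are given in counts per 1000000 counts of the library (CPM). Feature lengths are not given, so a share of counts does not rank features by transcript number.

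Post-spawning testes 1, 2 and 3 held 46981762, 31890345 and 52676056 counts. Post-spawning ovaries 1, 2 and 3 held 14604277, 46411875 and 31085100 counts, so the ovary that stands apart is also the shallowest of the 6 libraries. Spearman correlations between post-spawning testes were 0.957 to 0.972, over the 55802 features that reached 20 counts in the 6 libraries together. Post-spawning ovaries 2 and 3 correlated at 0.960, whereas post-spawning ovary 1 correlated at 0.828 and 0.836 with them. The ovary closest to post-spawning ovary 1 was a spawning one, at 0.899, and its correlations with the post-spawning testes (0.703 to 0.718) were above those of ovaries 2 and 3 (0.611 to 0.642). These correlations are across features, which are not independent replicates.

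The labels carry a second name for each library. Post-spawning testes 1, 2 and 3 are Y1IIIB, Y1_IIIB_2 and Y1IIIC, and post-spawning ovaries 1, 2 and 3 are X1_3A, X4IIIA and X4_IIIA_2. What these names stand for is not stated. Features found in a single library of the series (at least 1 CPM there, at most 3 counts in each of the other libraries) numbered 0, 3 and 0 in post-spawning testes 1, 2 and 3. They numbered 0 and 2 in post-spawning ovaries 2 and 3, 16 in post-spawning ovary 1, and 6 to 98 in the 12 libraries of the other stages. The 5 post-spawning libraries other than ovary 1 thus had the fewest private features of the series. Within a gonad their counts differed by more than sampling noise. Chi-square per degree of freedom was 80.8 for testes 1 and 2, 104 for testes 1 and 3, and 23.6 for testes 2 and 3. For ovaries 2 and 3 it was 147. Whether any of these libraries are separate preparations of the same RNA is not stated and was not tested. All 6 libraries were kept as separate samples, as labelled. The edgeR p-values below rest on the spread within the 6 groups of all 18 libraries, and not on these 6 libraries alone. The exact permutation p-values use the 6 post-spawning libraries only. The spread between the post-spawning libraries may be partly technical.

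The question put to the data was which features the gonads express at different levels once spawning is over. Of 53536 features tested, 10395 were higher in testes and 11812 were higher in ovaries, which is 19.4% and 22.1% of those tested and 41.5% in all (edgeR quasi-likelihood test, Benjamini-Hochberg adjusted p under 0.05, 3 libraries per gonad). The differences were large: 8010 of the testis features and 8252 of the ovary features differed at least 4-fold, and 1981 and 1892 at least 64-fold. At 256-fold or more, 680 features were higher in testes and 1046 higher in ovaries. The median log2 fold change of the called features was 3.22 on the testis side and -2.76 on the ovary side.

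A second method, DESeq2, split almost evenly with all libraries, at 12716 features higher in testes and 12694 higher in ovaries. Without post-spawning ovary 1 the balance of edgeR calls tipped to the testis. The ovary side then rested on ovaries 2 and 3, X4IIIA and X4_IIIA_2 by second name. Whether these came from separate fish is not stated. Of 56913 features then tested, 13084 (23.0%) were higher in testes and 12460 (21.9%) were higher in ovaries, 44.9% in all (edgeR). The median log2 fold change over all features tested was 0.34 without that library, against 0.04 with it, and the changed split of calls stands beside that shift. The fit without post-spawning ovary 1 also tested 3377 more features, so these medians do not cover the same set. At least 16-fold differences numbered 5623 toward testes and 4000 toward ovaries without it, against 3899 and 3570 with it. At 64-fold or more they numbered 3052 and 2139 without it, and at 256-fold or more 1040 and 1143, so the ovary excess at the largest folds was smaller. The ovary side was the steadier: 92.8% of the ovary calls made with post-spawning ovary 1 were also made without it, and 89.8% of those made without it were also made with it. On the testis side these shares were 87.1% and 71.4%, since 3634 features tested in both fits were called higher in testes only once the library was left out. Among features tested in both fits, no feature was called in opposite directions by edgeR.

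**Figure D1:**
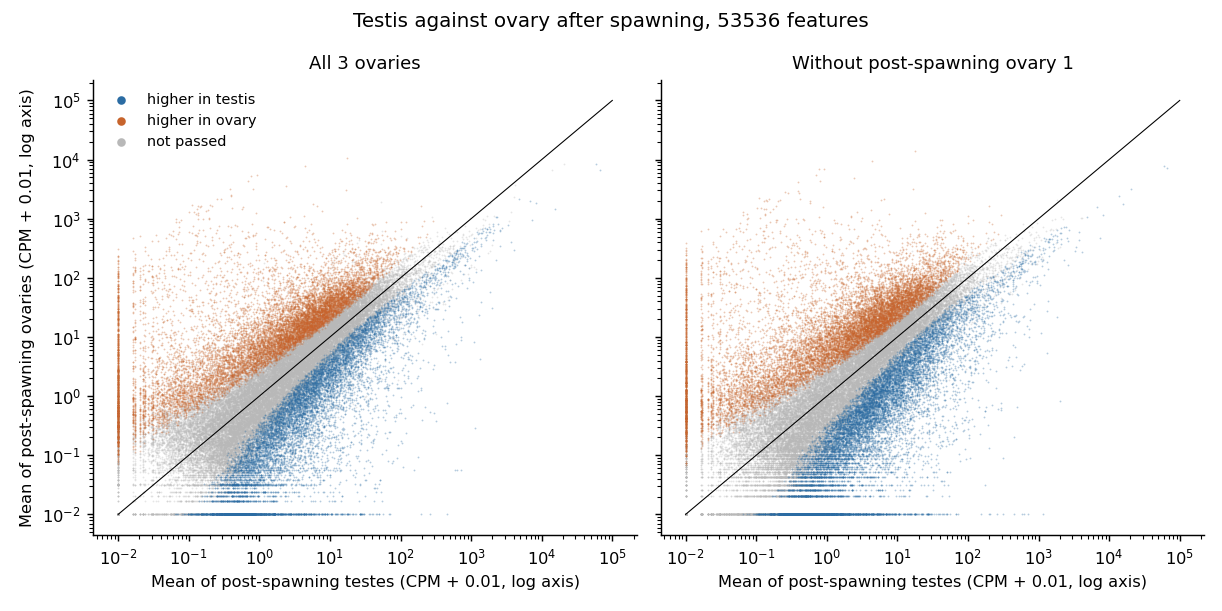
Mean level of each of the 53536 tested features in the 3 post-spawning testes (x axis, CPM + 0.01, log) against post-spawning ovaries (y axis, CPM + 0.01, log), with all 3 ovaries on the left and with ovaries 2 and 3 on the right. Blue points were called higher in testis and orange points higher in ovary by edgeR, and the line marks equal levels; the blue cloud spreads further from the line without post-spawning ovary 1 (5623 against 3899 calls at 16-fold or more over all features tested in each fit).

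Over all 53536 features tested, every testis lay above every ovary in 16196 (30.3%) and every ovary above every testis in 13620 (25.4%), whether called or not. Every testis lay above every ovary in 10310 of the 10395 features called higher in testes. Every ovary lay above every testis in 10532 of the 11812 features called higher in ovaries, so 1280 ovary calls include an ovary that overlaps the testes. With post-spawning ovary 1 left out, the separation held for 13065 of 13084 testis calls and 12283 of 12460 ovary calls. Over all 56913 features tested it held for 23562 (41.4%) toward testes and 18366 (32.3%) toward ovaries. With fewer ovaries such separation is easier to reach.

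Within seasons, taken as labelled, the gonads differed to unequal degrees. Second names with a common stem fall in different seasons, and what those names stand for is not stated. Among 33863 features with a mean of at least 1 CPM over the 6 libraries, the season 1 pair, which contains post-spawning ovary 1, had 2775 features (8.19%) at least 4-fold higher in testis and 5555 (16.4%) at least 4-fold higher in ovary. The season 2 pair had 6289 and 4715, and the season 3 pair had 5191 and 7104. At least 4-fold higher in testis in all 3 pairs were 1991 features, and higher in ovary in all 3 were 2642. Over seasons 2 and 3 alone these numbers were 4168 and 4086, and asking for fewer pairs can only raise them. Such ratios of single libraries carry no test. They were computed on CPM plus 0.5, and library composition differs: the median log2 ratio was -0.39, 0.34 and -0.25 in seasons 1, 2 and 3.

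To ask how far the gonad difference after spawning repeats that of the other stages, features were classed from the 12 libraries taken before and at spawning, which share no library with the post-spawning groups. A feature was called testis-predominant where those 6 testes averaged 1 CPM or more and at least 16 times those 6 ovaries, ovary-predominant features are the mirror image, and shared features reached 1 CPM in either gonad without that ratio. Most of the ovary class was again higher in ovaries after spawning. Of 2049 ovary-predominant features tested (2102 in the class), 1854 (90.5%) were higher in ovaries, 1 was higher in testes and 194 did not pass, against a background of 22.1% called higher in ovaries. The median log2 fold change was -6.95, with the middle 90% of the class between -13.60 and -2.34.

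The testis class was split between calls for its own gonad and features that did not pass. Of 2617 testis-predominant features tested (2713 in the class), 1536 (58.7%) were higher in testes, 31 were higher in ovaries and 1050 did not pass, against a background of 19.4% called higher in testes. The median log2 fold change was 3.81, and 89.2% of the class lay above 0. Without post-spawning ovary 1, 1745 of 2654 (65.7%) were higher in testes and the median was 4.63, while the ovary class stood at 1814 of 2068 (87.7%) with a median of -7.06. Classes set by medians in place of means, an alternative chosen after seeing the data, gave 60.8% for the testis class and 93.3% for the ovary class.

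Shared features, which make up most of those tested, were called at shares near the background. Of 35777 tested, 6105 (17.1%, against 19.4% over all features) were higher in testes and 8529 (23.8%, against 22.1%) higher in ovaries, with a median log2 fold change of -0.11. Without post-spawning ovary 1 these were 8038 (22.5%) and 8886 (24.8%) of 35787, with a median of 0.06, so the median changed sign. Features below 1 CPM in both gonads at the other stages leaned the other way, with 2753 (21.0%) of 13093 higher in testes and 1398 (10.7%) higher in ovaries. The class has 94424 features, and some of those tested may have passed the low-count filter only through a post-spawning group where they were high. All tested features averaging under 1 CPM over the 18 libraries had like shares, 21.0% and 11.3%. These sets overlap by how they are defined, so the likeness cannot tell the class from its low level. The lean is not read as a result about this class.

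**Figure D2:**
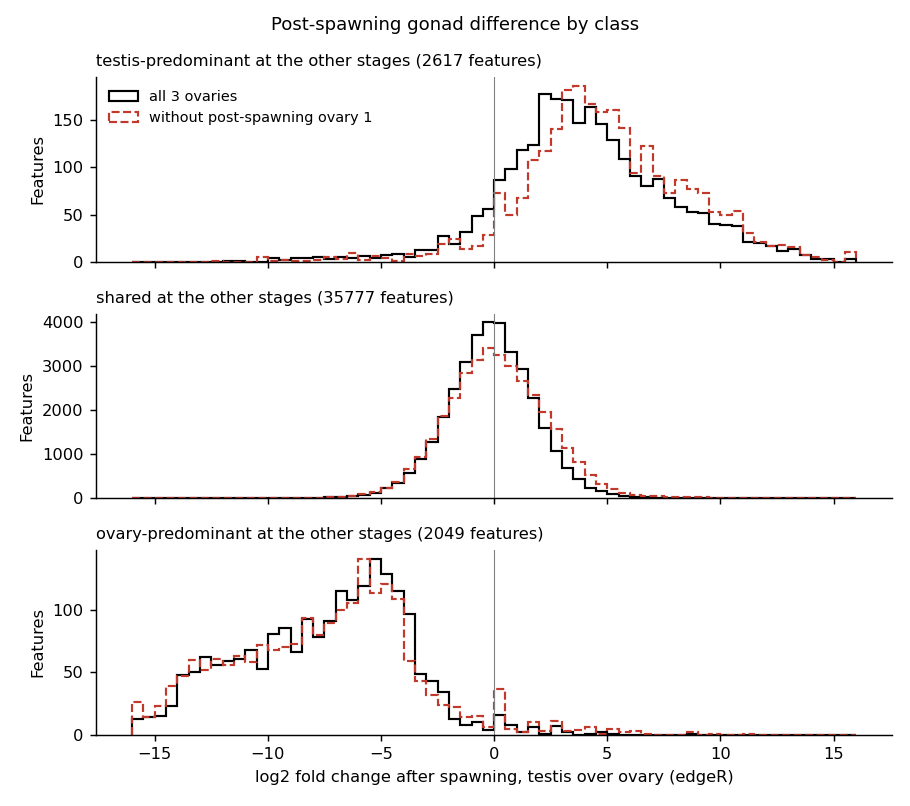
Distribution of the log2 fold change after spawning, testis over ovary (x axis, edgeR, values beyond 16 drawn at the edge), for features classed from the other stages (y axis: number of features). Solid lines use all 3 ovaries and dashed lines leave out post-spawning ovary 1; the testis class moves further to the right without that library (median 4.63 against 3.81), and the ovary class has its median at -7.06 against -6.95.

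As a share of the library, ovary-predominant features took 0.155%, 0.180% and 0.172% of counts in testes 1, 2 and 3 after spawning. In ovaries 1, 2 and 3 they took 13.8%, 31.4% and 26.5%. Post-spawning ovary 1 thus had the lowest share of the 3 ovaries, though it stood far above every testis, and its share was also under that of every pre-spawning and spawning ovary, the libraries that defined the class and reached up to 31.5%. Testis-predominant features took 11.4%, 5.32% and 5.37% of counts in the testes and 0.879%, 0.879% and 0.697% in the ovaries. For both classes testes and ovaries did not overlap, which with 3 libraries against 3 gives the smallest p that an exact permutation test allows (two-sided, p = 0.1, adjusted p = 0.1 over 7 library-level values), so the design cannot reach 0.05.

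The excess of post-spawning testis 1 over the other testes in this share lay in a small set of features. The feature cluster2035 was picked as the most abundant one that differed at least 1000-fold between libraries of a group, and a set of 105 features followed it across the 18 libraries (Pearson correlation of at least 0.8 on log2(CPM + 0.1)), and 98 of them were in the testis class. The set took 6.29% of counts in post-spawning testis 1 and 0.00782% and 0.00900% in testes 2 and 3. In post-spawning ovaries 1, 2 and 3 it took 0.0205%, 0.625% and 0.479%, so ovaries 2 and 3 lay above testes 2 and 3. None of the 105 was called in either direction by edgeR with or without post-spawning ovary 1, none had an unadjusted p under 0.05 with all libraries, and DESeq2 called 0. With a set chosen for its spread within groups, this is a description and no finding. Outside the set, testis-predominant features took 5.17%, 5.31% and 5.37% of counts in testes and 0.860%, 0.257% and 0.221% in ovaries, with post-spawning ovary 1 the highest ovary. The set was defined from these libraries after seeing the data.

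**Figure D3:**
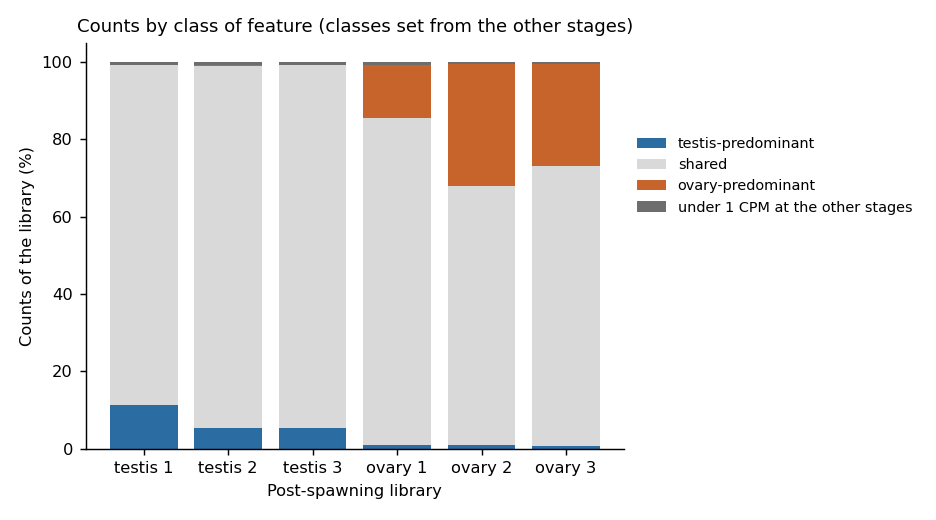
Percentage of counts (y axis) taken by each class of features in the 6 post-spawning libraries (x axis), with classes set from the pre-spawning and spawning libraries. Orange, the ovary-predominant share, is 13.8% in ovary 1 and 31.4% and 26.5% in ovaries 2 and 3, and blue, the testis-predominant share, is 11.4% in testis 1 and 5.32% and 5.37% in testes 2 and 3.

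Counts were more concentrated in testes. The 10 features with most counts took 21.6%, 21.6% and 19.1% of the library in testes 1, 2 and 3, against 7.99%, 9.04% and 5.44% in ovaries 1, 2 and 3. Much of this testis share lay in cluster18 and cluster0, which join 78 and 230 transcripts and are described below. The 100 features with most counts took 36.3% ± 1.29 in testes, against 19.6% ± 3.19 in ovaries (n = 3 each, SD, exact permutation p = 0.1, the smallest possible). Testes also had more features detected: thinned to 14604277 counts each, they showed 63814, 66940 and 64568 features with at least 1 count, against 55327, 53716 and 53585 in ovaries. With at least 5 counts required, the numbers were 40982, 43279 and 42073 in testes and 39949, 37244 and 38259 in ovaries. Testes and ovaries did not overlap in any of these measures.

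Of the 5 features with the largest mean share in testes, 3 differed between the gonads with all libraries in the fit. The feature cluster18, a cluster of 78 transcripts, took 7.34%, 7.03% and 5.49% of counts in testes and 0.550%, 1.18% and 0.240% in ovaries (edgeR: log2 fold change 3.30, SE 0.80, adjusted p = 0.0044). The largest cluster of these, cluster0, joins 230 transcripts and took 7.23%, 5.69% and 4.91% in testes and 0.909%, 1.28% and 0.294% in ovaries (edgeR: log2 fold change 2.85, SE 0.91, adjusted p = 0.0204). It passed less firmly, with adjusted p = 0.0747 without post-spawning ovary 3 and 0.058 without post-spawning testis 1. The feature cluster2034, with 12 transcripts, took 1.71%, 1.24% and 1.76% in testes and 0.0802%, 0.257% and 0.0924% in ovaries (edgeR: log2 fold change 3.45, SE 0.88, adjusted p = 0.0058).

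Both other leading features were high in the testes and in post-spawning ovary 1. The single transcript cluster61036 took 1.52%, 2.45% and 2.16% of counts in testes and 1.88%, 0.244% and 0.400% in ovaries. It did not pass with all libraries (edgeR: log2 fold change 1.38, SE 0.83, adjusted p = 0.192) and was higher in testes without post-spawning ovary 1 (2.71, SE 0.90, adjusted p = 0.0234). The single transcript cluster32980 took 1.00%, 1.70% and 1.44% in testes and 1.53%, 0.179% and 0.300% in ovaries, with adjusted p = 0.297 with post-spawning ovary 1 and 0.0329 without it (edgeR). With cluster0, these were also among the 5 leading features of the ovaries, a rank that came from post-spawning ovary 1 for both single transcripts. In spawning ovaries cluster61036 ranged from 4715 to 44073 CPM and cluster32980 from 3656 to 36481 CPM. A high ovary level of either was thus not limited to post-spawning ovary 1.

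The ovary side was led by cluster55 and cluster70400, which were also the first 2 by mean level among the 2895 features at least 16-fold higher in ovaries with and without post-spawning ovary 1 and free of overlap. The feature cluster55, a cluster of 55 transcripts, stood at 17.1, 15.1 and 20.8 CPM in testes and 3564, 17949 and 9871 CPM in ovaries (edgeR: log2 fold change -9.21, SE 0.81, adjusted p = 9.37e-07). The single transcript cluster70400 stood at 3.09, 5.46 and 4.54 CPM in testes and 3882, 10729 and 8558 CPM in ovaries (edgeR: log2 fold change -10.79, SE 1.06, adjusted p = 2.13e-06). In both, post-spawning ovary 1 was the lowest ovary and still more than 100 times every testis. Leaving it out gave log2 fold changes of -9.64 and -11.14.

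On the testis side 3382 features met the mirrored rule. The first of them by mean level, cluster1504, a cluster of 14 transcripts, stood at 1722, 2449 and 1835 CPM in testes and 90.0, 0.797 and 0.869 CPM in ovaries (edgeR: log2 fold change 6.16, SE 1.57, adjusted p = 0.00576). Ovaries 2 and 3 lay near 1 CPM and post-spawning ovary 1 about 100 times above them, so the log2 fold change was 11.23 (SE 1.48) without it. In spawning ovaries cluster1504 ranged from 3.44 to 110 CPM, so a level like that of post-spawning ovary 1 was not limited to that library. Pre-spawning ovaries stood at 5.27 to 11.6 CPM, and post-spawning ovaries 2 and 3 were the lowest ovaries of the series. The feature cluster1172, with 15 transcripts, stood at 1698, 2063 and 1717 CPM in testes and 128, 13.0 and 30.9 CPM in ovaries (edgeR: log2 fold change 5.12, SE 0.76, adjusted p = 9.14e-05). Its log2 fold change without post-spawning ovary 1 was 6.47 (SE 0.74). Both belonged to the testis class of the other stages.

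Calls that appeared only without post-spawning ovary 1 lay mostly on the testis side. Of the 56913 features tested without it, 1581 were at least 16-fold higher in testes and not called with it, against 348 on the ovary side. These counts include features that were not tested with it. The median log2 fold change over all features tested also moved toward testes, from 0.04 with it to 0.34 without it, over unlike sets of features. The feature cluster6187, with 6 transcripts, stood at 669, 755 and 817 CPM in testes and 618, 31.1 and 29.3 CPM in ovaries. Post-spawning ovary 1 lay just below the testes and about 20 times above the other ovaries, and the log2 fold change was 1.85 with it (SE 0.93, edgeR adjusted p = 0.118) and 4.64 without it (SE 0.82, adjusted p = 0.000437). With season as a block and all libraries it also passed (2.77, edgeR adjusted p = 0.0181). The single transcript cluster31911 stood at 859, 466 and 543 CPM in testes and 662, 3.94 and 2.90 CPM in ovaries, with post-spawning ovary 1 inside the range of the testes. Its log2 fold change was 1.66 with that library (edgeR adjusted p = 0.358) and 7.54 without it (adjusted p = 0.000659).

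On the ovary side both such features had at most 1 count in post-spawning ovary 1. The single transcript cluster62618 had 0 counts in the 3 testes and in post-spawning ovary 1, and 4715 and 1536 counts in ovaries 2 and 3. Over the groups this is at least 2976-fold higher in ovaries, against a floor of 3 counts for the 3 testes, a bound that covers counting error only. It had 10 counts over the spawning testes, 3 over the spawning ovaries and 0 before spawning, and it was tested only once post-spawning ovary 1 was left out. The feature cluster25404 stood at 2.21, 3.26 and 3.00 CPM in testes and 0.0685, 36.4 and 57.1 CPM in ovaries, with edgeR adjusted p = 0.0529 with post-spawning ovary 1 and 0.00651 without it (log2 fold change -3.42 and -4.00).

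**Figure D4:**
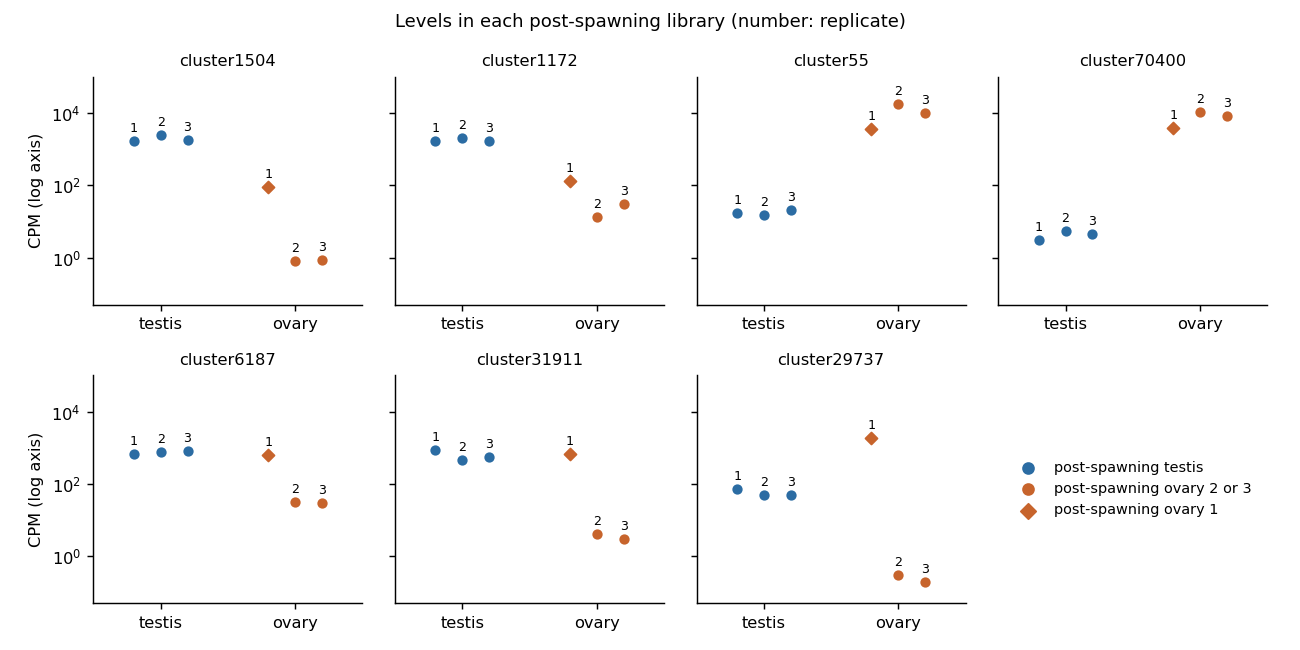
Level of 7 features in each post-spawning library (y axis, CPM, log), with testes in blue on the left, ovaries in orange on the right and post-spawning ovary 1 as a diamond; numbers are replicates. For cluster6187 and cluster31911 the diamond (618 and 662 CPM) lies at the level of the testes, and for cluster29737 it lies at 1829 CPM, above them.

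Post-spawning ovary 1 departed from ovaries 2 and 3 across the transcriptome. Of 33863 features with a mean of at least 1 CPM, 2839 (8.38%) were at least 4-fold higher in it than in the mean of ovaries 2 and 3 and 1610 (4.75%) at least 4-fold lower, whereas ovaries 2 and 3 differed 4-fold from each other in 311. By class, 447 of 1617 ovary-predominant features (27.6%) were lower in post-spawning ovary 1 and 74 (4.58%) were higher, while 305 of 1612 testis-predominant features (18.9%) were higher and 118 (7.32%) lower. Of 30002 shared features 2331 (7.77%) were higher, close to the share over all features. Of 632 features below 1 CPM in both gonads at the other stages, 129 (20.4%) were higher and 100 (15.8%) lower. Among the 2839 higher features, the testis mean was at least 4-fold above ovaries 2 and 3 in 1249, within 4-fold in 1541 and at least 4-fold below in 49. Among the 1610 lower features, it was at least 4-fold below them in 1099, within 4-fold in 455 and at least 4-fold above in 56. Both comparisons are made against ovaries 2 and 3, so how the features were picked favours such counts. The matching shares over all features are not given here. These counts describe 1 library and carry no test.

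The most displaced feature with at least 100 CPM in post-spawning ovary 1, cluster29737, was picked out after its values were seen. It stood at 69.7, 48.0 and 48.2 CPM in testes and 1829, 0.302 and 0.193 CPM in ovaries, and its log2 fold change was -3.30 with post-spawning ovary 1 (SE 2.43, edgeR adjusted p = 0.287) and 7.78 without it (SE 2.72, adjusted p = 0.0299). In spawning ovaries it ranged from 0.366 to 1001 CPM, so a high level in a single ovary was not limited to this library. Depth, RNA state and tissue make-up of post-spawning ovary 1 were not given in the labels beyond its total of 14604277 counts, and their part in these differences was not tested.

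Some features were limited to a gonad after spawning within the depth of these libraries. At least 1 CPM in each testis and at most 3 counts in any ovary was met by 769 features, with a median level of 2.80 CPM, and the mirrored condition by 523 features, with a median of 19.4 CPM. With all 3 ovaries the ovary-limited features were thus fewer and higher, and they took 2.54% of counts in ovaries on average, where testis-limited features took 0.820% in testes. Without post-spawning ovary 1, 1099 features were limited to testes (median 2.73 CPM) and 909 to ovaries (median 6.65 CPM). Leaving out any ovary can only add features under these conditions, so the higher numbers follow from the rule. A dependence on this ovary in particular is not shown. Of the 523, 424 were single transcripts, as were 396 of the 769. Single transcripts made up 104382 of all 135031 features and 26491 of the 53536 tested. At the other stages, 111 of the 523 ovary features were limited to the ovary as well, by the same condition in all 12 libraries, and 13 of the 769 testis features were limited to the testis. The parts of that condition went different ways. At most 3 counts in every other-stage library of the other gonad held for 172 of the 523 and 380 of the 769. At least 1 CPM in every other-stage library of their own gonad held for 386 of the 523 and 72 of the 769.

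The leading testis-limited features were the single transcripts cluster75353 and cluster75546. The feature cluster75353 had 37878, 19403 and 38453 counts in testes and 2, 0 and 0 counts in ovaries, a ratio of 33513 in CPM over the pooled libraries (exact 95% counting interval 9277 to 276734). The feature cluster75546 had 33127, 16537 and 34137 counts in testes and also 2, 0 and 0 in ovaries, a ratio of 29336 (interval 8121 to 242240). Their few post-spawning ovary counts lay in ovary 1. Before and at spawning the features averaged 28.5 and 451 CPM (cluster75353) and 36.3 and 530.0 CPM (cluster75546) in testes. Over the spawning ovaries they had 82 and 95 counts, and they reached 2.39 and 2.71 CPM in spawning ovary 1. Such intervals leave out the spread between libraries.

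The leading ovary-limited features were cluster45259 and cluster74197, also single transcripts. The feature cluster45259 had 3, 2 and 0 counts in testes and 4541, 27148 and 23655 counts in ovaries, or 311, 585 and 761 CPM. The feature cluster74197 had 1 count in each testis and 3744, 20437 and 28161 counts in ovaries, a ratio of 24920 in favour of the ovary (exact 95% counting interval 8527 to 120843). Both were present at similar mean levels in pre-spawning ovaries (451 and 535 CPM) and spawning ovaries (419 and 311 CPM), and post-spawning ovary 1 was the lowest of the 3 post-spawning ovaries in each. Their highest levels in testes of the other stages were 2.22 CPM (cluster45259, spawning testis 2) and 1.86 CPM (cluster74197, pre-spawning testis 3).

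The number of transcripts joined in a feature went with the direction of the difference. Of 26491 single-transcript features tested, 17.1% were higher in testes and 26.7% higher in ovaries, against 19.4% and 22.1% over all features. The shares were 18.6% and 20.4% for 2 to 4 transcripts, and 26.2% and 12.5% for 5 to 19 transcripts. Among 761 features of 20 or more transcripts 45.2% were higher in testes and 4.07% higher in ovaries. The trend was there at like levels of expression: for features averaging 10 to 100 CPM over the 18 libraries, 13.1% of single transcripts and 43.0% of features of 20 or more transcripts were higher in testes, and 42.6% and 5.54% were higher in ovaries. With post-spawning ovary 1 left out, the largest features were higher in testes in 57.4% of cases and higher in ovaries in 4.2%. How transcripts were clustered is not given in the sources used here, and its part in the trend was not tested.

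**Figure D5:**
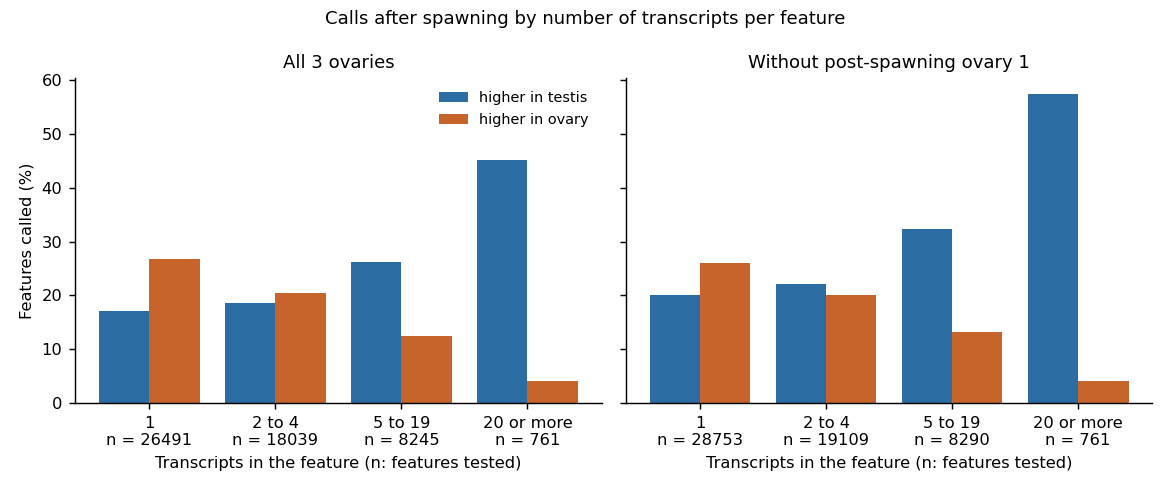
Percentage of tested features called higher in testis (blue) and higher in ovary (orange) by edgeR after spawning (y axis), by the number of transcripts joined in the feature (x axis, with the number of features tested). Testis calls climb to 45.2% and ovary calls shrink to 4.07% for features of 20 or more transcripts with all 3 ovaries (left), and the right panel leaves out post-spawning ovary 1.

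Transcripts whose identifiers have a common stem, and which differ in the final transcript number, were sometimes placed in separate features with opposite gonad bias. Of 16499 stems with at least 2 tested features, 5220 had 2 or more called. Among these, 2792 had all called features higher in testes, 2037 had all higher in ovaries, and 391 (7.49%) had features called in both directions. At least 4-fold in each direction was reached by 173 stems. Leaving out post-spawning ovary 1, 525 of 6444 such stems (8.15%) were split. Whether a stem stands for a gene, for gene copies or for alleles is not stated in the files, so these counts do not show splicing.

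How many gonad differences were particular to the post-spawning stage depended on the fit. The testis minus ovary difference after spawning, set against the mean of the same difference before and at spawning, passed for 79 of 53536 features (0.148%), 27 above (0.0504%) and 52 below (0.0971%) that of the other stages (edgeR, 7348 at an unadjusted p under 0.05). Of the 27, 24 were called higher in testes after spawning, and 19 had their highest group mean in post-spawning testes. Of the 52, 29 belonged to the testis class of the other stages, 36 were called higher in ovaries after spawning and 21 had their lowest group mean in post-spawning testes. Over all 53536 features tested, 2617 were in the testis class, 19.4% were called higher in testes and 22.1% higher in ovaries. The class, the calls and the group means use libraries that also enter the test between stages. They describe the called features and give that test no separate support. Without post-spawning ovary 1 the test passed for 202 of 56913 features (0.355%), 72 above (0.127%) and 130 below (0.228%), and 22 and 50 features were called in the same direction in both fits. Leaving out any post-spawning testis left 1 feature (edgeR; 5908, 5807 and 5334 at an unadjusted p under 0.05 without testis 1, 2 and 3), with season as a block 23 passed, and DESeq2 called 1729. With no filter on low counts edgeR called 2897.

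Among the features whose gonad difference was wider after spawning, cluster62570 stood at 43.8, 47.3 and 41.7 CPM in testes and 0.342, 0.129 and 0.193 CPM in ovaries (log2 fold change 7.81, SE 0.72). Before and at spawning its group means were 1.37 and 1.80 CPM in testes and 0.464 and 0.934 CPM in ovaries, and the difference between stages was 6.70 on the log2 scale (SE 0.76, edgeR adjusted p = 0.00591), or 7.02 without post-spawning ovary 1. The feature cluster36717 stood at 14.1, 15.1 and 17.1 CPM in testes and 0.616, 0.539 and 0.643 CPM in ovaries, with a difference between stages of 4.36 (SE 0.61, edgeR adjusted p = 0.016), or 4.34 without that library. Its group means at the other stages lay between 1.68 and 3.15 CPM in both gonads. In both features the 3 testes were close together and far above the 3 ovaries. Both were picked for a small adjusted p in this test, a choice that favours such a pattern. The ovary levels of cluster62570 rest on 5, 6 and 6 counts in ovaries 1, 2 and 3.

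In the other direction, the difference of cluster41017 between stages was -10.54 on the log2 scale (SE 1.39, edgeR adjusted p = 0.0155), and -8.15 without post-spawning ovary 1 (SE 0.94, adjusted p = 0.0025). It stood at 2.96, 2.26 and 1.99 CPM in post-spawning testes and 28.2, 1.77 and 1.99 CPM in post-spawning ovaries, against means of 351 and 7.73 CPM in pre-spawning and spawning testes and 0.230 and 0.0666 CPM in the ovaries of those stages. After spawning testes and ovaries overlapped and the gonad difference itself did not pass (adjusted p = 0.0861), though it passed without post-spawning ovary 2 or 3 (adjusted p = 0.0468 and 0.0448); ovary 1 was the highest library. The feature cluster76018 stood at 0.213, 0.220 and 0.323 CPM in post-spawning testes and 4.72, 1.1 and 0.643 CPM in post-spawning ovaries. Its means were 24.4 and 1.65 CPM in pre-spawning and spawning testes, and 0.164 and 0.0628 CPM in the ovaries of those stages. The level in testes was thus already far lower at spawning. Its difference between stages was -8.75 (SE 1.23, edgeR adjusted p = 0.016), and -7.59 without post-spawning ovary 1 (SE 1.09, adjusted p = 0.00826). Its higher level in post-spawning ovaries passed with post-spawning ovary 1 (edgeR adjusted p = 0.016) and not without it (adjusted p = 0.0893), nor without testis 1 or 2 (adjusted p = 0.056 and 0.0589).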

How the data were processed

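Gonad RNA of 18 libraries was sequenced. The authors deposited whole-number counts per feature and a text map from transcripts to features; fastp and Salmon were used, per the submitters' processing notes, so these may be rounded estimates. For the transcriptome, the clustering and the strand setting, the method is not given in the sources used here. Counts were scaled by TMM, filtered with filterByExpr and tested with edgeR 4.0.16 (glmQLFit, robust=FALSE, glmQLFTest) in R 4.3.3, on all 18 libraries with 6 group means and adjustment over all features tested, threshold 0.05. SEs come from the F statistic. The scripts were checked on simulated counts. Library values were tested by exact permutation with Python 3.11.15. The biological coefficient of variation was 63.3% with all libraries, 60.4% without post-spawning ovary 1, and 52.9% and 33.1% in fits on the 6 and the remaining 5 post-spawning libraries. The labels call season, equal to the replicate number, a batch, so it pairs the gonads. Same-season deviations from the group means correlated at 0.00344, -0.254 and -0.141 over 31163 features in seasons 1, 2 and 3. Intervals and floors cover counting error only. Alternatives were RLE scaling, no low-count filter, DESeq2 1.42.0, a season block, other fits and each post-spawning library left out.

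Features named were the first 2 in each direction by mean level in the higher gonad among those called with and without post-spawning ovary 1, at least 16-fold apart in both and free of overlap; the 5 with the largest mean share in each gonad; the first 2 in each direction called only without post-spawning ovary 1 (at least 16-fold); the first 2 limited to each gonad; and, for the test between stages, 2 per direction with the smallest adjusted p and at least 10 CPM in the highest group mean. Members, classes and rules were chosen with earlier results of these data known.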

Additional observations from a re-analysis of the deposited data

Results flagged for a closer look

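The gonad difference after spawning differed from the mean of that before and at spawning in 79 features by a direct test in edgeR. The 2 with the smallest adjusted p in each direction were cluster62570 (6.70 on the log2 scale) and cluster36717 (4.36) above the other stages, and cluster41017 (-10.54) and cluster76018 (-8.75) below them. Leaving out post-spawning testis 1, 2 or 3 raised the adjusted p of cluster36717, cluster41017 and cluster76018 above 0.05 in each case, with the log2 differences between 4.26 and 4.47, -10.82 and -10.40, and -8.99 and -8.59.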

How the results depend on the processing

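With all 3 ovaries, 22207 features were called between the gonads, and leaving out a post-spawning library gave 16196 to 25544 (6507 to 13084 higher in testes and 8744 to 12460 higher in ovaries). A fit on the 5 post-spawning libraries without ovary 1, whose spread may be partly technical, gave 35162 calls, 18618 of them higher in testes. RLE scaling, no low-count filter, DESeq2, the 6-library fit and the season block stayed within 1.5 times of each of these counts, with 21332 calls under the block; the cause of the changes was not tested, though leaving out a library also changes how many features are tested. The test between stages called 79 features (27 above, 52 below), and 1 to 202 (1 to 72 above, 0 to 130 below) with a post-spawning library left out; the 0 came without each testis, at 5334 to 5908 features with an unadjusted p under 0.05. It called 2897 (608 and 2289) with no low-count filter, 23 (9 and 14) with season as a block, which pairs the gonads, and 1729 (554 and 1175) by DESeq2.

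With a library left out, the log2 fold change of cluster41017 ranged from -2.50 to 0.40 and that of cluster29737 from -3.89 to 7.78, the positive ones being those without post-spawning ovary 1, and in the 5-library fit they were 0.28 and 7.65. Testes exceeded ovaries by 10898 detected features with at least 1 count and by 3627 with at least 5. With predominance set at 4 times, testes minus ovaries was 18.6 percentage points for the testis class and -35.4 for the ovary class, and 4817 of 9649 features of the testis class (49.9%) and 4849 of 5565 of the ovary class (87.1%) were called in their own gonad. With 0 counts allowed in the other gonad, 348 features were limited to testis and 264 to ovary, and without post-spawning ovary 1, 1099 and 909. Depth limits what absence means: 3 counts are a larger share of the 14604277 counts of post-spawning ovary 1 than of any other post-spawning library.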
